A study of Homo sapiens with 6 samples.

Results

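The genes described here are 10 components and targets of transforming growth factor beta (TGF-beta) and bone morphogenetic protein (BMP) signalling: the ligand genes TGFB1, TGFB2, BMP2 and BMP4, the feedback inhibitor genes SMAD6 and SMAD7, the target genes ID1, ID2 and ID3, and the TGF-beta-induced matrix gene TGFBI. They were chosen by symbol, and all 10 were found among the 62703 genes of the deposited count table. A549, a cell line established from a human lung adenocarcinoma, had been grown in hydrogels named AlgLung (3 libraries) or S-AlgLung (3 libraries). The labels give the hydrogel as the only difference between the groups. The letter S is not explained in them, and the series title concerns sulfation of the extracellular matrix. All cells were maintained in medium with fetal bovine serum, and neither the time in the hydrogel nor an added TGF-beta or BMP ligand is named in the labels. Nothing there says whether the 3 replicates of a hydrogel were separate cultures, so the p-values rest on a spread among libraries that may be technical only.

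TGF-beta ligands are secreted in a latent form tied to the matrix, and once released they bind type I and type II receptor kinases that phosphorylate SMAD2 and SMAD3. BMPs use related receptors to phosphorylate SMAD1, SMAD5 and SMAD9, which enter the nucleus with SMAD4 and switch on ID1, ID2 and ID3 and the inhibitors SMAD6 and SMAD7. ID proteins have a helix-loop-helix region but no DNA-binding region. They pair with E proteins and keep these transcription factors off DNA, and they are known for holding cells in an undifferentiated state. BMP2 and BMP4 bind heparan sulfate, a sulfated sugar chain of the matrix.

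Total counts per library ran from 22978408 to 26495444. S-AlgLung replicate 3 stood apart from the other libraries. It correlated with the other S-AlgLung libraries at 0.971, against 0.986 between those 2 (log2 CPM across genes, which are not independent replicates). The other libraries did not group cleanly by hydrogel. AlgLung replicates 1 and 2 correlated at 0.978, below AlgLung replicate 2 with S-AlgLung replicate 2 (0.980). The summed level of the nuclear RNAs MALAT1 and NEAT1 was 241 CPM there and 44.5 to 75.8 CPM in the other 5 libraries, and that of 5 immediate early genes was 673 CPM, against 308 and 325 in the other S-AlgLung libraries and 120 to 146 in AlgLung. CPM means counts scaled to a common library size, here with TMM factors, which correct for differences in library composition. Epithelial markers (5 of 5 tested, 0 called) summed to 10034 to 13216 CPM in AlgLung libraries and 4455 to 11996 in those of S-AlgLung, lowest in S-AlgLung replicate 3, and KRT8 and KRT18 made up most of that sum. EPCAM and CDH1 were instead highest in S-AlgLung replicate 3 (5.40 and 99.0 CPM), and EPCAM was higher in each S-AlgLung library (2.99 to 5.40 CPM) than in any AlgLung library (1.53 to 2.34 CPM). The 5 detoxification enzymes that A549 cells are known to express at high levels summed to 13454 to 22315 CPM. Fibroblast and endothelial lists stayed under 6 CPM in each library, and of the leukocyte list CD14 alone was above a trace, with 5 reads of PTPRC and 2 of CD3E in all libraries together. CD14 made up nearly all of the leukocyte sum of 30.3 to 37.5 CPM in AlgLung libraries and 42.8 to 70.0 in those of S-AlgLung, and was called higher. Values without S-AlgLung replicate 3 are given beside many of the fold changes that it moved.

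Of the 10 genes, 9 had enough reads to test and 1 of them, ID3, was called between the hydrogels. ID3 was lower in S-AlgLung, ID2 pointed the same way without passing the threshold, and ID1 was at nearly the same mean level in both. BMP4 and SMAD7 had higher means and TGFB2 a lower mean in S-AlgLung, none of them called, and BMP2 was close to absent. With the quasi-likelihood test of edgeR at an adjusted p under 0.05, 0 of the 9 were called higher, with 2 at an unadjusted p under 0.05, and DESeq2 and limma-voom also called 0. One was called lower, with 2 at an unadjusted p under 0.05. Over all 18544 tested genes, 3.15% were called higher and 1.99% lower in S-AlgLung (5.14% in either direction). The median log2 fold change (S-AlgLung minus AlgLung) was 0.03 over the 9 genes and 0.03 over all tested genes. In 3 of the 9 genes (ID3, BMP4 and TGFB2) the values of the hydrogels did not overlap, and in 18.4% of all tested genes they did not (10.4% with S-AlgLung higher, 8.05% with it lower).

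**Figure D1:**
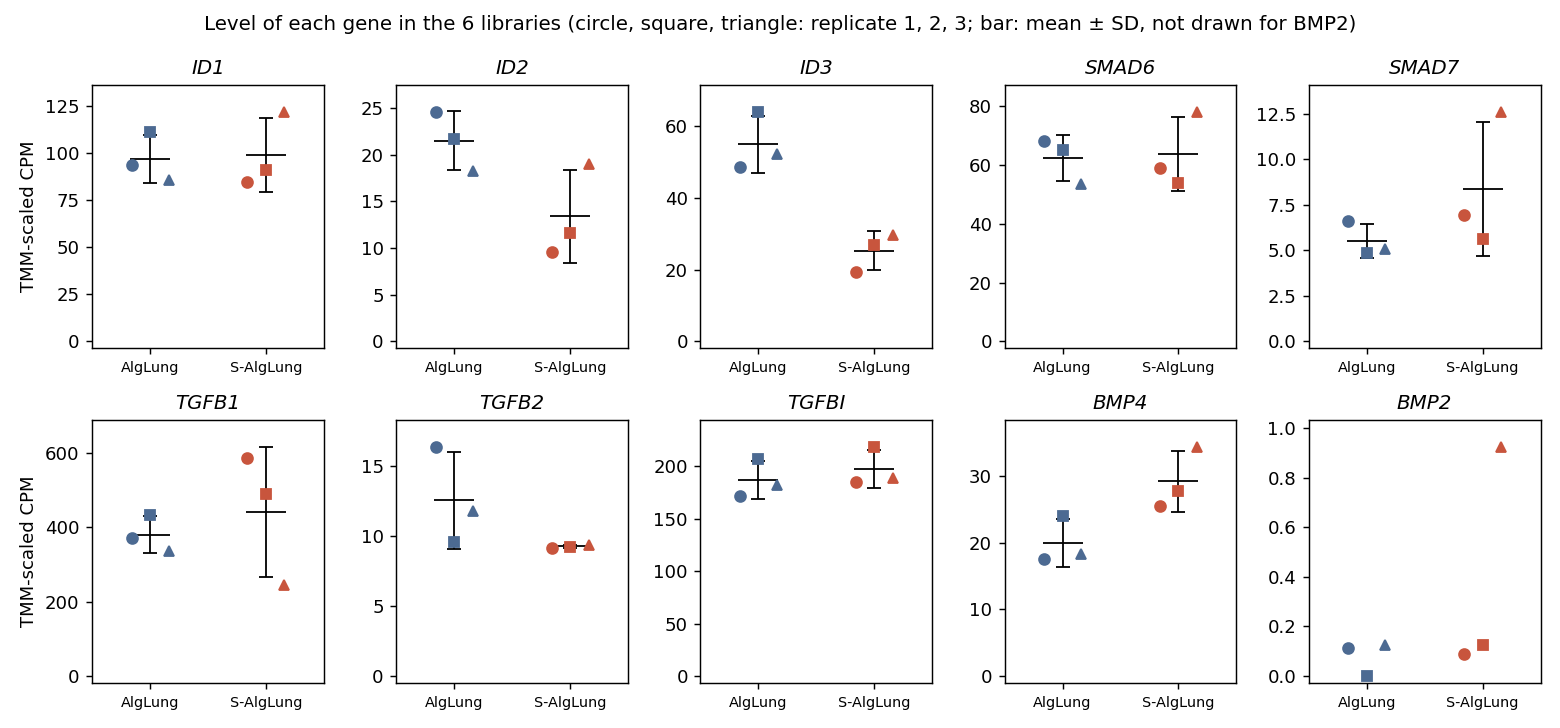
TMM-scaled CPM (vertical axis, from 0) of the 10 genes in 3 AlgLung (blue) and 3 S-AlgLung (red) libraries. Symbols mark replicates 1 to 3 and bars the mean ± SD, which is not drawn for BMP2. All S-AlgLung values of ID3 (19.4 to 29.8 CPM) lie under all AlgLung values (48.6 to 63.8 CPM), and S-AlgLung replicate 3 has the highest value of ID1, SMAD6, SMAD7, BMP4 and BMP2 and the lowest of TGFB1.

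ID3 encodes one of the ID proteins (ENSG00000117318, chromosome 1, 23557926 to 23559501, GRCh38). Its level was 48.6, 63.8 and 52.4 CPM in AlgLung replicates 1, 2 and 3 and 19.4, 26.7 and 29.8 CPM in S-AlgLung replicates 1, 2 and 3. Every S-AlgLung library was below every AlgLung library, and the highest S-AlgLung value was well short of the lowest AlgLung value. The means were 54.9 ± 7.93 and 25.3 ± 5.36 CPM (SD, n = 3 each), a 2.17-fold lower level in S-AlgLung, with a log2 fold change of -1.12 (SE 0.22, edgeR adjusted p = 0.00163). ID3 was called lower in all 14 alternative analyses, with log2 fold changes of -1.28 to -0.96 and adjusted p of 4.435e-07 to 0.0329. Without S-AlgLung replicate 3 the log2 fold change was -1.28. In RNA pooled from many cells, fewer cells with ID3 RNA and less of it per cell cannot be told apart.

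ID2 (ENSG00000115738, chromosome 2, 8678845 to 8684461) read 24.5, 21.7 and 18.2 CPM in AlgLung and 9.57, 11.6 and 19.0 CPM in S-AlgLung. S-AlgLung replicates 1 and 2 were below all AlgLung libraries, while replicate 3 lay among them. The log2 fold change was -0.68 (SE 0.24, 95% interval -1.18 to -0.18 before adjustment, edgeR adjusted p = 0.122). Without S-AlgLung replicate 3, ID2 was called lower, at -1.05 (edgeR adjusted p = 0.0001003). Leaving out any other single library gave -0.84 to -0.49 and no call.

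ID1 (ENSG00000125968, chromosome 20, 31605283 to 31606515) had the most reads of the 3 ID genes. It measured 94.0, 111 and 85.7 CPM in AlgLung and 84.6, 91.0 and 122 CPM in S-AlgLung. The ranges overlapped, with the highest value of all in S-AlgLung replicate 3. Its log2 fold change was 0.03 (SE 0.23, 95% interval -0.45 to 0.51, edgeR adjusted p = 0.980) and ran from -0.17, without S-AlgLung replicate 3, to 0.14 across the alternatives. The interval left out a 2-fold difference in either direction.

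The ID genes can also be compared inside each library, where depth and scaling cancel. For each ID1 read there were 0.517, 0.575 and 0.611 ID3 reads in AlgLung and 0.229, 0.294 and 0.244 in S-AlgLung. These ratios fell into 2 groups with a wide gap, with S-AlgLung replicate 3 between its sister libraries. For each ID1 read there were 0.261, 0.196 and 0.213 ID2 reads in AlgLung and 0.113, 0.127 and 0.156 in S-AlgLung, again without overlap. ID2 in S-AlgLung replicate 3, which lay inside the AlgLung range in CPM, was thus below it relative to ID1. ID1 itself was at its highest in that library (122 CPM), so the low ratio there depends on the ID1 level too. The ID2 to ID3 ratio did overlap, at 0.504, 0.340 and 0.348 in AlgLung and 0.494, 0.433 and 0.638 in S-AlgLung. On the log2 scale the differences were -1.16 for ID3 to ID1, -0.76 for ID2 to ID1 and 0.40 for ID2 to ID3. Exact 2-sided permutation tests gave p = 0.1, 0.1 and 0.3 (adjusted over the 3 ratios, 0.15, 0.15 and 0.3), and 0.1 is the smallest p that 3 libraries against 3 can give. The ratios were chosen after the levels had been seen. Leaving out any single library left the differences at -1.26 to -1.08 for ID3 to ID1 and -0.88 to -0.64 for ID2 to ID1. That of ID2 to ID3 ranged from 0.24, without S-AlgLung replicate 3, to 0.58, without AlgLung replicate 1.

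**Figure D2:**
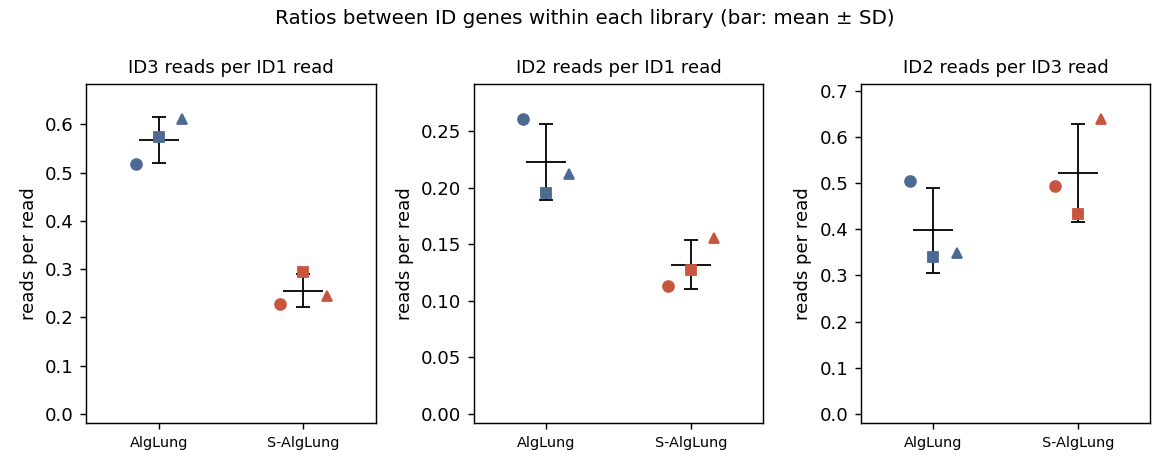
Reads of one ID gene per read of another in each library (vertical axis, from 0), for 3 AlgLung (blue) and 3 S-AlgLung (red) libraries, with bars for the mean ± SD. The ID3 to ID1 ratio is at least 0.517 in AlgLung and at most 0.294 in S-AlgLung, the ID2 to ID1 ratio also separates the hydrogels, and the ID2 to ID3 ratio does not.

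ID3 and ID1 differ in the bases before their starts, and these are shown beside the promoter of SMAD6, a member with no detectable difference. Each run is from the RefSeq promoter window of GRCh38.p14, read 5′ to 3′ on the gene's strand and ended before the gene's own deposited exons. Capitals mark matches on either strand to any of 5 motifs: the TATA box, searched as TATAAA; the SMAD palindrome, searched as GTCTAGAC; a GC-rich BMP element, searched as GGCGCC; the CAGA box, bound by SMAD3 and SMAD4, searched as CAGACA; and the AP-1 site, searched as TGANTCA.
ID1, chr20:31605039-31605282, plus strand: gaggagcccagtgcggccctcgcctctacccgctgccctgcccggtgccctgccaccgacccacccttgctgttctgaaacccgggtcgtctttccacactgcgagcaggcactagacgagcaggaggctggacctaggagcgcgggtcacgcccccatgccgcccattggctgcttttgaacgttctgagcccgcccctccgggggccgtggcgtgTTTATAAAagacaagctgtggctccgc
ID3, chr1:23559502-23559751, minus strand: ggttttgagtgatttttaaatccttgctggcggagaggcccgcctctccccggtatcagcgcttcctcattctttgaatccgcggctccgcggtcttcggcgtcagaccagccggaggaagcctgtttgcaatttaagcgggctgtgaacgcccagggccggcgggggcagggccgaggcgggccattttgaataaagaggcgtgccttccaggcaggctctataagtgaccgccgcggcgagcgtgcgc
SMAD6, chr15:66701986-66702235, plus strand: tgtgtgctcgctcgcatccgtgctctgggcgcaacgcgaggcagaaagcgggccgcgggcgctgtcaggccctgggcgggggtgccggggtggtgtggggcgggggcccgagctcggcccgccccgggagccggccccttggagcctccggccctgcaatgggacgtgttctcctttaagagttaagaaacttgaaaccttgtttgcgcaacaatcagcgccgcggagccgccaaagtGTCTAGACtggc
In ID1 the capitals are a TATA box, matched on both strands at overlapping positions. ID3 held none of these motifs in the 250 bases searched. It also held no cyclic AMP response element, searched as TGACGTCA, and no E box, to which E proteins bind, searched as CANNTG. ID1 likewise held none of the searched motifs other than the TATA box, so ID1 and ID3 differed in that motif alone. The ID3 run has the letters tataag near its end, which an exact search for TATAAA does not match. The SMAD6 window held the palindrome, which overlaps no other motif searched, and no other tested gene had a window with it. TGFB1 and TGFBI, with no detectable difference either, are not shown. Among windows not shown, the GC-rich BMP element was found for BMP4 and TGFBI and the CAGA box for BMP4 and TGFB2. The TATA box was found for SMAD7 and TGFB2, and the E box for ID2, SMAD7, BMP4 and TGFB2. BMP4 and SMAD7 each had 3 windows and could match in any of them, while the shares that follow are per window. For BMP4 the GC-rich element was in window 1 and the CAGA box in window 3. The TATA box of SMAD7 was in window 2 only. Over the 35116 promoter windows of the table, cut to 250 bases before the start, 0.182% held the SMAD palindrome, 16.4% the GC-rich BMP element, 13.6% the CAGA box and 6.57% the AP-1 site. The cyclic AMP response element was in 1.65%, the E box in 61.8% and the TATA box in 10.7%. All 9 tested genes had at least 1 window in that table. Each search covered all 250 bases, including any inside the gene's own deposited exons. Those took up the last 202 bases of the ID2 window and the last 60 of BMP4 window 3. The BMP4 CAGA box lay within such exon bases, and the ID2 E box crossed their edge. Such matches describe letters only and were not tested for binding.

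SMAD6, which blocks BMP receptors and SMAD1, is itself a BMP target (ENSG00000137834, chromosome 15, 66702236 to 66782849). Its level was 68.3, 65.2 and 53.5 CPM in AlgLung and 59.2, 54.0 and 78.0 CPM in S-AlgLung. The hydrogels overlapped, and S-AlgLung replicate 3 was the highest library. The log2 fold change was 0.03 (SE 0.23, 95% interval -0.43 to 0.49, edgeR adjusted p = 0.980), and -0.17 without S-AlgLung replicate 3.

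SMAD7, the inhibitor that acts on both TGF-beta and BMP receptors (ENSG00000101665, chromosome 18, 48919853 to 48950965), was present at a low level. It read 6.59, 4.86 and 5.09 CPM in AlgLung and 6.94, 5.62 and 12.6 CPM in S-AlgLung. Only S-AlgLung replicate 3 was clearly above the rest, with 354 reads against 108 to 172 in the other 5 libraries. For SMAD7 the log2 fold change was 0.61 (SE 0.27, edgeR adjusted p = 0.281), and it was 0.15 without S-AlgLung replicate 3. That library thus carried most of the difference in mean, and it was also the library with the highest immediate early and nuclear RNA levels. The part of either in the SMAD7 value was not tested.

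Among the ligands, TGFB1 was by far the most abundant (ENSG00000105329, chromosome 19, 41301587 to 41353922). AlgLung replicates 1, 2 and 3 had 371, 433 and 335 CPM. S-AlgLung replicates 1 and 2 were higher than each of these, at 585 and 489 CPM, and S-AlgLung replicate 3 was the lowest library, at 246 CPM. The log2 fold change was 0.21 (SE 0.28, 95% interval -0.37 to 0.79, edgeR adjusted p = 0.828) with all libraries. Without S-AlgLung replicate 3 it was 0.47 (edgeR adjusted p = 0.226), still not called. Its direction turned without S-AlgLung replicate 1, at -0.05, and it was 0.09 without AlgLung replicate 3. HNRNPUL1, a gene on the opposite strand with 1.19 times the reads of TGFB1, overlaps 6.59% of the exon length of TGFB1. Whether reads were counted by strand is not stated in the labels, so the reads of that stretch cannot be assigned to either gene.

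TGFB2, a second TGF-beta ligand (ENSG00000092969, chromosome 1, 218345336 to 218444619), read 16.3, 9.53 and 11.8 CPM in AlgLung. In S-AlgLung it was nearly constant, at 9.16, 9.20 and 9.38 CPM. The hydrogels did not overlap, but AlgLung replicate 2 sat only just above the S-AlgLung libraries. The log2 fold change was -0.44 (SE 0.23, 95% interval -0.92 to 0.04, edgeR adjusted p = 0.392), and -0.25 without AlgLung replicate 1. The transcript TGFB2-OT1 on the same strand overlaps 22.7% of the exon length of TGFB2 and had 0.223 times its reads.

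BMP4 (ENSG00000125378, chromosome 14, 53949736 to 53958761), a ligand for the receptors that feed the ID genes, was higher in all 3 S-AlgLung libraries than in any AlgLung library. It measured 17.5, 24.1 and 18.3 CPM in AlgLung and 25.5, 27.7 and 34.3 CPM in S-AlgLung. The gap between the groups was narrow, and the highest value was again in S-AlgLung replicate 3. The means were 19.9 ± 3.58 and 29.2 ± 4.58 CPM (SD, n = 3 each), with a log2 fold change of 0.55 (SE 0.22, 95% interval 0.11 to 0.99 before adjustment, edgeR adjusted p = 0.188). BMP4 was called in none of the 14 alternatives, where its log2 fold change ran from 0.39, without S-AlgLung replicate 3, to 0.70. The mean of BMP4 was higher in the hydrogel where ID3 was lower.

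BMP2 (ENSG00000125845, chromosome 20, 6767686 to 6780246), the closest relative of BMP4 among the ligands here, had 37 reads in all and was not tested. AlgLung had 3, 0 and 3 reads and S-AlgLung 2, 3 and 26. All but 11 of the reads came from S-AlgLung replicate 3, where the level was 0.924 CPM.

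TGFBI, a secreted matrix protein named for its induction by TGF-beta (ENSG00000120708, chromosome 5, 136028988 to 136063818), did not differ beyond its spread. It read 171, 206 and 182 CPM in AlgLung and 184, 218 and 188.5 CPM in S-AlgLung. The ranges overlapped, and no library stood out. TGFBI had a log2 fold change of 0.08 (SE 0.24, 95% interval -0.41 to 0.56, edgeR adjusted p = 0.943).

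**Figure D3:**
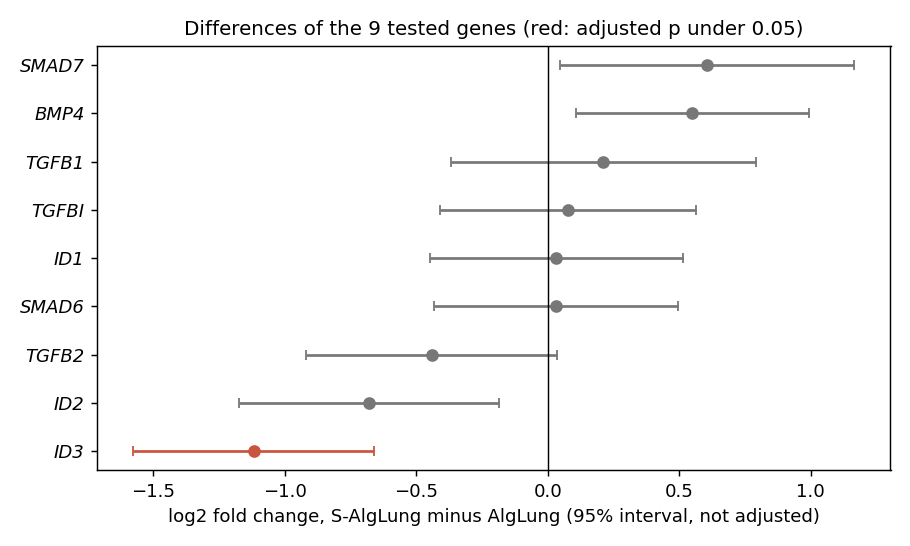
Log2 fold change, S-AlgLung minus AlgLung (horizontal axis), of the 9 tested genes in the edgeR fit of all 6 libraries, with 95% intervals not adjusted for multiple testing. ID3 (red, -1.12) passed an adjusted p under 0.05, ID2 (-0.68), BMP4 (0.55) and SMAD7 (0.61) have intervals that leave out 0 without passing, and the other 5 intervals include 0.

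To rank the genes by level, counts were taken per kilobase of exon. The read ratios between ID genes given above were not corrected for exon length. In AlgLung the mean CPM per kilobase ran from TGFB1 (116) through ID1 (78.6), ID3 (36.7), TGFBI (24.2), ID2 (9.71), SMAD6 (7.29), BMP4 (6.44), TGFB2 (2.08) and SMAD7 (1.40) to BMP2 (0.0225). In S-AlgLung TGFB1 (135) and ID1 (80.4) again led, but TGFBI (25.5) came before ID3 (16.9), and BMP4 (9.43) and SMAD6 (7.45) before ID2 (6.05). SMAD7 (2.12), TGFB2 (1.53) and BMP2 (0.107) followed. ID3 stood above TGFBI in each AlgLung library (32.5, 42.7 and 35.0 against 22.2, 26.7 and 23.6 CPM per kilobase) and below it in each S-AlgLung library (12.9, 17.9 and 19.9 against 23.9, 28.2 and 24.4). The neighbours SMAD6 and BMP4 in AlgLung, and SMAD6 and ID2 or SMAD7 and TGFB2 in S-AlgLung, differed by less than the larger of their SDs.

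S-AlgLung replicate 3 was the highest of the 6 libraries for 4 of the 9 tested genes (ID1, SMAD6, SMAD7 and BMP4) and the lowest for 1 (TGFB1). Over all tested genes it was the highest for 29.0% and the lowest for 21.3%. S-AlgLung replicate 1 was the lowest library for 4 of the 9 (ID1, ID2, ID3 and TGFB2), against 15.1% of all tested genes. Leaving out S-AlgLung replicate 3 moved ID1, SMAD6, SMAD7, BMP4, ID2 and ID3 down and TGFB1 up. Under that setting 2 of the 9 genes were called lower, ID2 and ID3, and 0 higher, with 1 at an unadjusted p under 0.05 in edgeR.

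**Figure D4:**
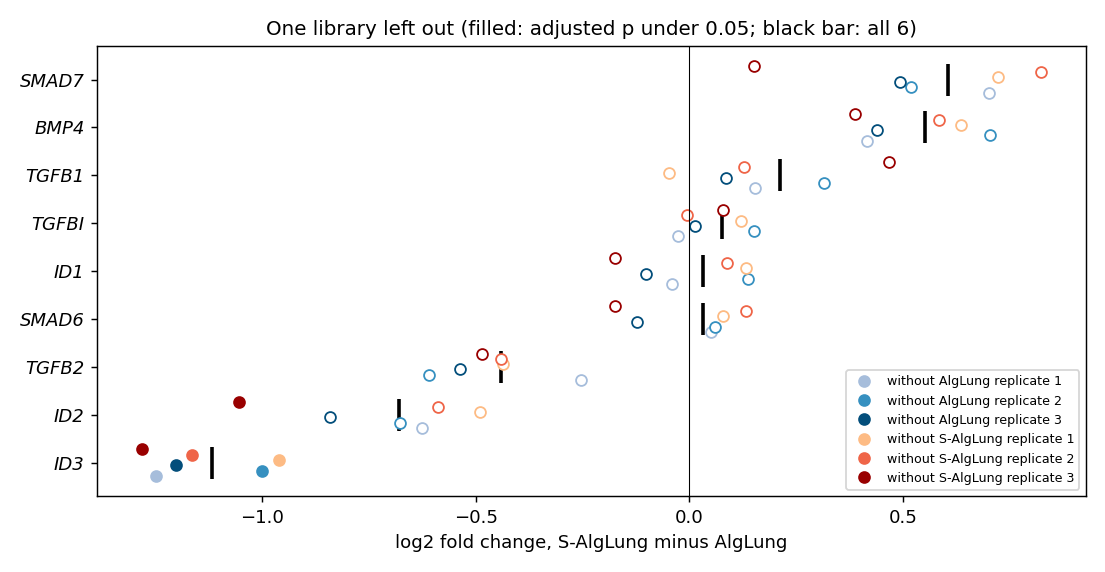
Log2 fold change (horizontal axis) of each tested gene with all 6 libraries (black bar) and with 1 library left out (circles, coloured by library, filled where the adjusted p was under 0.05). ID3 stays between -1.28 and -0.96 and filled throughout, ID2 is filled only without S-AlgLung replicate 3 (-1.05), and SMAD7 drops from 0.61 to 0.15 without that library.

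The genes whose levels followed ID1 most closely over the 6 libraries were SPARC, a secreted matrix glycoprotein gene (Pearson r = 0.962 of log2 CPM), DYNLT2B (0.959), ZFAND2A (0.959), the heat shock gene HSPA1B (0.959) and PDE9A (0.958). They were the first 5 of 11517 genes compared, 10 of which had r over 0.95. All 5 were, like ID1, highest in S-AlgLung replicate 3 and uncalled between hydrogels in edgeR (adjusted p of at least 0.903). Without that library r was 0.912, 0.920, 0.908, 0.948 and 0.907, in the same order, a setting chosen after the values were seen. With 6 points and so many genes, such values describe likeness only.

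The rest of the pathway was read from 93 other genes in 8 lists by role, of which 69 were tested in edgeR. There, 10 were called higher and 5 lower in S-AlgLung, and their median log2 fold change was 0.04. Over all tested genes 3.15% were called higher and 1.99% lower, and the median was 0.03. Leaving out AlgLung replicate 2 left 1 gene lower. Leaving out AlgLung replicate 3 or S-AlgLung replicate 2 left 3 lower, and 9 were lower when S-AlgLung replicate 3 was left out. None of 13 tested receptors and coreceptors was called (9 pointed down and 4 up), with ACVR1, a type I receptor for BMPs and activins, having the smallest p at 0.50 (SE 0.22, adjusted p = 0.250). Of 12 SMAD genes and regulators, SMAD9 was called higher, on 66 reads (8, 2 and 3 in AlgLung and 18, 13 and 22 in S-AlgLung). That call did not survive the removal of AlgLung replicate 2 or 3 or of S-AlgLung replicate 1 (edgeR adjusted p = 0.169, 0.189 and 0.120). Total-count scaling (0.0690) and DESeq2 (0.0527) ended it too.

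Secreted antagonists and activin-type ligands were among the genes called. CHRD, the gene of the BMP-binding antagonist chordin, rose from 1.65, 1.84 and 1.70 to 9.52, 5.45 and 7.96 CPM (log2 fold change 2.14, SE 0.28, edgeR adjusted p = 1.042e-05). FST, the gene of follistatin, which binds activins and BMPs, rose from 3.33, 4.50 and 4.84 to 11.8, 9.42 and 18.7 CPM (log2 fold change 1.66). Without S-AlgLung replicate 3 the log2 fold change of FST was 1.30. BMPER, a secreted BMP-binding modulator, fell from 39, 28 and 43 reads to 2, 2 and 3. These were 3 of 8 tested antagonists, 2 higher and 1 lower. Of 9 tested TGF-beta and activin ligands and latency genes, 2 rose and 1 fell. INHA, the inhibin alpha chain, rose from 2.64, 3.96 and 3.89 to 23.8, 20.4 and 13.2 CPM, and INHBB, the activin beta B chain, from 33.6, 28.6 and 27.8 to 60.1, 56.7 and 84.1 CPM (log2 fold changes 2.45 and 1.16). With S-AlgLung replicate 3 left out, INHA and INHBB were at 2.63 and 0.93. LTBP2, a latent TGF-beta binding protein gene, was lower by 0.77, a call lost on removal of any AlgLung library or of S-AlgLung replicate 2 (adjusted p of 0.0892 to 0.138) and with total-count scaling (0.0645). Of 5 tested BMP and GDF ligands, GDF15, a stress-induced distant member of the family, was called higher at 0.86. Removing AlgLung replicate 1, 2 or 3 (0.203, 0.102 and 0.149) or scaling by total counts (0.0663) ended the GDF15 call.

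Medians by list were 0.04 for the TGF-beta and activin ligands and latency genes, 0.23 for BMP and GDF ligands, -0.07 for receptors, 0.10 for SMAD genes and regulators and -0.24 for antagonists. Those of the TGF-beta targets, BMP targets and E protein list were 0.29, -0.11 and -0.07. Target lists held calls in both directions. Of 14 tested TGF-beta targets, 3 rose and 2 fell: KLF10, a TGF-beta-inducible repressor, rose by 1.89 and SNAI1, a repressor of epithelial genes, by 2.39, while CDKN1A, a cell cycle inhibitor, fell by 1.09 (edgeR adjusted p = 9.615e-06, 1.281e-05 and 0.00498). With AlgLung replicate 2 removed, CDKN1A missed the threshold (0.0635). The other 2, named after their values were seen, were JUNB (0.83, lost on removal of any AlgLung library, of S-AlgLung replicate 1 or 2, and with total-count scaling) and PMEPA1, a feedback inhibitor (-0.86, lost on removal of AlgLung replicate 2 or 3, or of S-AlgLung replicate 1 or 2). HOOK2, on the opposite strand and with 0.354 times the reads of JUNB, overlaps 14.2% of its exon length. With S-AlgLung replicate 3 left out, KLF10, SNAI1, CDKN1A, JUNB and PMEPA1 were at 1.61, 2.17, -0.99, 0.77 and -1.13. Several of these targets also answer to other signals, and 5 of 5 immediate early genes were called higher in the same comparison; their part in these values was not tested. Of 7 tested BMP targets, SMAD9 was higher and ID4 lower. ID4, the remaining ID family gene, had 48 reads in all, 17, 11 and 11 in AlgLung and 2, 3 and 4 in S-AlgLung (log2 fold change -2.10, edgeR adjusted p = 0.0257). It pointed the same way as ID2 and ID3, and its call was lost on removal of AlgLung replicate 1 or 2, or of S-AlgLung replicate 1 or 2 (0.138, 0.0876, 0.137 and 0.0614), with no low-count filter (0.0541) and with DESeq2 (0.0737). Among the E proteins that ID proteins bind, TCF3, TCF4 and TCF12 were tested and none was called (log2 fold changes 0.22, -0.75 and -0.37). HES1, a Notch target of the same protein class, rose by 1.31 (edgeR adjusted p = 0.000391).

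**Figure D5:**
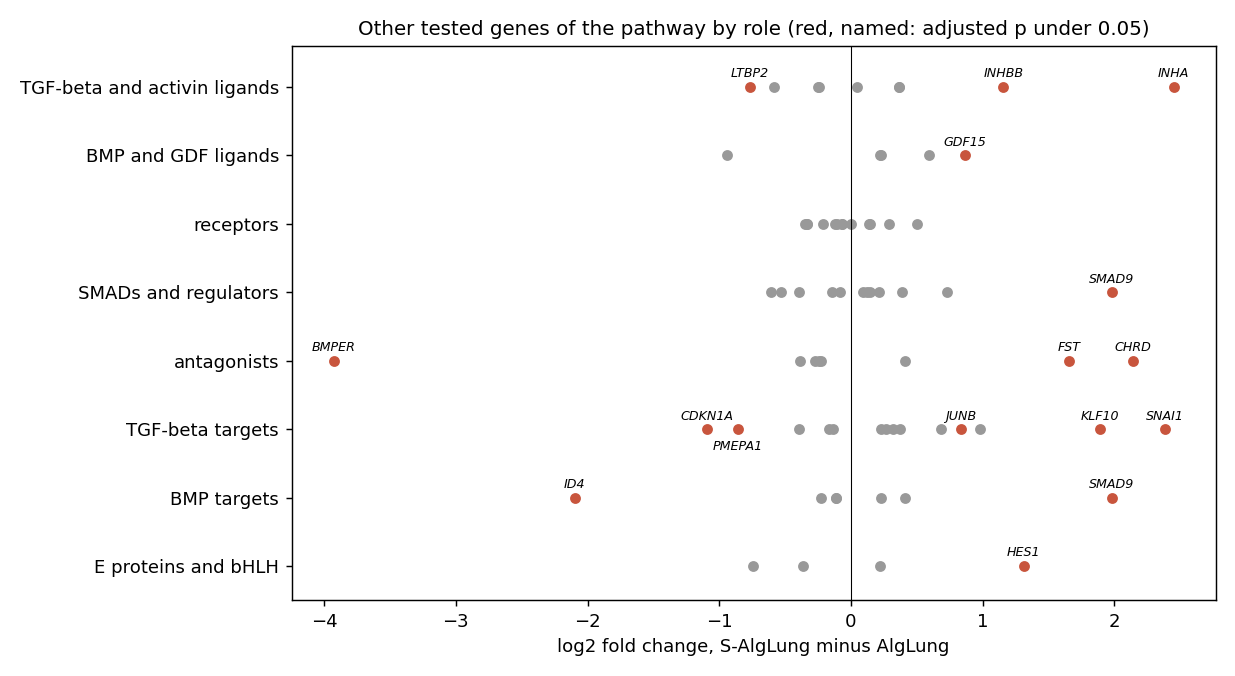
Log2 fold change (horizontal axis) of the other tested genes of the pathway, 1 point a gene, in rows by role. Named red points passed an adjusted p under 0.05 in edgeR, from BMPER (-3.93) to INHA (2.45), and no receptor did.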

How the data were processed

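RNA was taken up in TRIzol and column-purified, and a service provider built and sequenced the libraries, per the labels' protocols. Per the submitters' processing notes, STAR 2.7.3a, GRCh38 and featureCounts were used. The featureCounts version, the annotation and the strand setting were not stated. The table the authors deposited gives whole-number read counts without normalization, with exon lengths, for 62703 genes. Names were found for 62625 IDs, 42300 of them with a symbol. The 2 columns of AlgLung replicate 1 were identical (0 genes differed) and were used once.

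Genes passing filterByExpr (minimum count 10) left 18544. They were scaled with TMM and tested 2-sided in edgeR 4.0.16 (R 4.3.3) by quasi-likelihood over all 6 libraries without a block, with Benjamini-Hochberg adjustment over all tested genes and a threshold of 0.05. Standard errors were taken as the size of the log2 value over the root of F, and 95% intervals use the fit's degrees of freedom. The biological coefficient of variation was 0.215. Log2 CPM used a prior count of 2. Total counts of 22978408 to 26495444 set the precision, lowest for genes under 1 CPM.

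Alternatives were other scalings (DESeq2 size factors, total counts, upper quartile), other tests (DESeq2 1.42.0 and limma-voom in limma 3.58.1), other filters (none, or a mean of 1 CPM or more), a replicate block, and each library left out. The edgeR step was first run on simulated counts with known changes. Members and lists were chosen with earlier results of these data known. One gene of the leukocyte list is not reported here and was left out of its sum. Named pathway genes were the first 3 called genes by p in each list, or the first gene by p where none was called, and for ID1 the 5 most correlated genes with a mean log2 CPM of at least 2.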

Additional observations from a re-analysis of the deposited data

How the results depend on the processing

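Of the 10 genes, 0 were called higher under any of the 14 alternatives. The number called lower was 1 with all libraries and 1 to 2 with 1 library left out. It was 2 with the replicate number as a block, where ID2 was called at -0.73 (edgeR adjusted p = 0.0186), and 2 without S-AlgLung replicate 3. ID3 kept its call and direction in all 14. The signs of ID1, SMAD6 and TGFBI changed with total-count scaling (-0.04, -0.05 and -0.02), which moved the median of all genes by -0.100, and with some libraries left out, and that of TGFB1 without S-AlgLung replicate 1 (-0.05). Other pathway genes called lower numbered 5, 1 to 9 with 1 library left out, and 3 with a mean of at least 1 CPM. Those called higher numbered 10, and 7 to 11 across the alternatives.

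The labels do not say whether libraries with the same replicate number share more than that number. Their deviations from the group means correlated at 0.0721, 0.285 and 0.0413 for replicates 1, 2 and 3. All were positive, and that of replicate 2 was the highest of any pair between the hydrogels. AlgLung replicate 1 correlated best with S-AlgLung replicate 3 (0.208). Whether the numbers mark a shared culture or day was not tested. Over all genes the block raised the calls from 953 to 1300. Depth limits BMP2, ID4 and SMAD9, with 37, 48 and 66 reads in all.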
